A study of Mus musculus with 6 samples.

Results

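The immediate-early transcription factors Egr1 and Egr2 were lower in the libraries labelled sg-kiaa1522 than in the control libraries, Egr1 from 579 ± 16.8 to 223 ± 10.9 counts per 1000000 counts of the library (CPM; mean ± SD, n = 3 libraries in each group) and Egr2 from 42.8 ± 1.08 to 10.7 ± 6.16 CPM. Both passed the threshold for a changed gene that the methods of the study state. Ier2, Zfp36 and Btg2 were lower by smaller steps, with fold changes between 0.602 and 0.734. Nr4a1, Nr4a2 and Ier3 were higher, with fold changes between 1.19 and 1.40. Egr3 and Dusp1 did not pass an adjusted p of 0.05, at which 26.3% of all tested genes were called in each direction (edgeR). The calls of Nr4a1, Nr4a2 and Ier3 were each lost when some single library was left out, that of Nr4a1 with any library. The 10 genes thus did not move as a block.

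These 10 genes are members of the EGR and NR4A families and other immediate-early genes, taken by gene name (Egr1, Egr2, Egr3, Nr4a1, Nr4a2, Ier2, Ier3, Zfp36, Btg2 and Dusp1) out of 34745 genes in the count tables. Each name had 1 row in all 6 tables. Of the 34745 genes, 10046 had more than 500 counts summed over the 6 libraries and were tested, and all 10 genes were among them.

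RNA was sequenced from the murine lung cancer cell line 889 (889-DTC), of C57BL/6 strain, kept in Dulbecco's modified Eagle medium with 10% fetal bovine serum. Both groups expressed Cas9 from a lentiviral vector. The 3 sg-con libraries came from cells with a control sgRNA, and the 3 sg-kiaa1522 libraries from cells with an sgRNA against kiaa1522, labelled as KIAA1522-downregulated. The labels name no stimulus, so the levels are read as those of cells kept in serum. The labels do not say which sgRNA was used, whether the cells were a clone or a pool, or whether the replicates were separate cultures, so that the p-values measure the spread between these libraries, which may be technical.

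The libraries held between 12220001 and 18609376 counts. A count of 3 corresponded to 0.162 to 0.247 CPM, the level under which a gene was read as not detectable. The targeted gene, listed as C77080, had 2214, 2404 and 2064 counts in sg-con and 2554, 3726 and 3667 in sg-kiaa1522, that is 127 ± 2.93 and 210 ± 6.38 CPM. Its mRNA was thus higher, not lower, in the libraries with the sgRNA against it (log2 fold change 0.73, SE 0.0569, edgeR quasi-likelihood test, adjusted p = 9.1e-05). Counts of mRNA do not measure the protein. For this reason the second group is called by its label in what follows, and every direction below is that of the labelled group relative to sg-con. Whether the labels of the groups were exchanged was not tested, and an exchange would turn every direction. Of the 10 lung epithelial markers, Epcam was at 0 in all 6 libraries and Krt7 at or under 3 counts, while the keratins Krt8, Krt18 and Krt19 were abundant, and the list, mostly keratins, summed to 3891 to 4617 CPM in sg-con and 3275 to 3522 CPM in sg-kiaa1522. All 6 epithelial markers tested had negative log2 fold changes, 5 of them at an adjusted p of 0.05 (26.3% of all tested genes were lower), with a median log2 fold change of -0.70, and Cdh1, E-cadherin, passed the study threshold (56.4 ± 4.94 and 20.6 ± 1.15 CPM, log2 fold change -1.45, edgeR adjusted p = 5.12e-05). The remaining marker, the lung lineage factor Nkx2-1, measured 55.7, 59.1 and 13.6 CPM in sg-con and 10.9, 9.49 and 39.5 CPM in sg-kiaa1522 (edgeR adjusted p = 0.208), so that for this gene replicate 3 of each group lay nearer to the other group, which was not so for Egr1. The 8 fibroblast markers summed to 467 to 486 and 167 to 198 CPM, most of it Col1a2 (log2 fold change -1.46, edgeR adjusted p = 1.52e-05). Pdgfrb was lower as well (43.1 ± 1.37 and 26.3 ± 6.82 CPM, log2 fold change -0.72, edgeR adjusted p = 0.00864). Col1a1, which was not tested, measured 7.01 ± 1.11 and 1.74 ± 0.226 CPM. Thy1 was at 0, and Dcn and Lum were at or under 3 counts. The 7 immune markers summed to 1.4 to 2.41 and 10.3 to 13 CPM. Of this Cd68 was 1.14 to 1.24 and 10.1 to 12.8 CPM (log2 fold change 3.23, edgeR adjusted p = 2.02e-05), and no other immune marker rose with it. Ptprc had 14, 1 and 6 counts in sg-con and 1, 2 and 2 in sg-kiaa1522, and Csf1r 5, 0 and 1 and 0, 0 and 0. Itgam and Cd79a were at or under 3 counts, and Adgre1 and Cd3e at 0. The 5 endothelial markers summed to at most 1.72 CPM. The part of these differences in the results below was not tested, and in bulk RNA fewer cells of a type and less RNA per cell cannot be told apart.

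Immediate-early genes are those that serum, growth factors, cytokines or stress switch on within minutes, before any new protein is made. Their promoters are held ready by serum response factor, which binds the CArG box together with ternary complex factors that the ERK kinases phosphorylate, and by CREB, which binds the cAMP response element (CRE). The mRNAs are short-lived, in part through AU-rich elements in the 3′ UTR. The products then follow separate roles. EGR proteins are zinc-finger transcription factors, NR4A proteins are nuclear receptors without a known natural ligand, and ZFP36, BTG2 and DUSP1 act as brakes, on mRNA stability, on proliferation and on MAP kinases.

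The promoter sequences are given here because the genes differ in the 2 kinds of element just named and the members that differ between the groups can be read against them. RefSeq windows (assembly GRCm38.p6, 250 bases before to 50 bases after a start) were matched by symbol for 7 of the 10 genes, with 11 windows in all, 5 of them for Egr2, and not for Egr1, Egr3 and Ier2. The motifs were searched on both strands: the CArG box (by its usual consensus), the full CRE (TGACGTCA), its first 5 letters (TGACG, which the full CRE contains), the EGR site (GCGNGGGCG), the NFκB site (by its usual consensus), an AP-1 site (TGANTCA) and a TATA box (TATAAA). Motif letters are in capitals and the strand is that of the gene.
Egr2, chr10:67537749-67537828, plus strand, CArG box and TGACG on both strands: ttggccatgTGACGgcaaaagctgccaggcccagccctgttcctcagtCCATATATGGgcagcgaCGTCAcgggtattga
Zfp36, chr7:28379267-28379296, minus strand, CArG box: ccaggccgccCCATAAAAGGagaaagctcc
Nr4a1, chr15:101266766-101266825, plus strand, reversed TGACG and EGR site: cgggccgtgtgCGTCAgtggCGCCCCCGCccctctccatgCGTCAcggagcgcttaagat
Nr4a2, chr2:57124099-57124158, minus strand, TGACG on both strands: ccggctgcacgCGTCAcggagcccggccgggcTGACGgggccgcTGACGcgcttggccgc
Ier3, chr17:35821593-35821652, plus strand, NFκB site: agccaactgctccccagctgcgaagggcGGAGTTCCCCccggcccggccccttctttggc
Btg2, chr1:134079271-134079330, minus strand, full CRE and EGR site: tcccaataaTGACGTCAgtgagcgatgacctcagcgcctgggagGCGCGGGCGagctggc
Dusp1, chr17:26508593-26508672, minus strand, TGACG and full CRE: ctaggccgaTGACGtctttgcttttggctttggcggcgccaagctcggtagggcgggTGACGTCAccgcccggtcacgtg

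A CArG box was present in the windows of Egr2 and Zfp36, both lower in sg-kiaa1522, and in 1.63% of all 32851 RefSeq windows. In Egr2 the box shown stands at -72 to -63 from the start at 67537869 and recurs in the 2 windows that overlap this one, and another (CCTTTTTTGG) stands in a further window. The Zfp36 stretch lies at -68 to -39 from the RefSeq start, inside the first exon of a longer annotated transcript. The full CRE was present in Btg2, which was lower, and in Dusp1, which was not called, and in 1.79% of all windows. The letters TGACG occurred in 5 of the 7 genes with a window and in 20.8% of all windows, and the EGR site in 4 of them (Nr4a1, Nr4a2, Zfp36 and Btg2) and in 5.55%. The NFκB consensus occurred in 3 (Egr2, Nr4a1 and Ier3) and in 8.46%, the TATA box in Nr4a2 alone and in 13.6%, and the AP-1 letters in none of the 7 and in 7.81%. Genes with several windows have more bases in which a motif can occur, and a match is a match of letters only.

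Per length, the 10 genes spanned a wide range of expression. Levels were set in TPM, transcripts per 1000000 transcripts, from counts divided by the bases covered by a gene's exons. In sg-con, Ier3 (365 ± 6.39 TPM), Ier2 (365 ± 53.5 TPM) and Egr1 (331 ± 5.77 TPM) led, and the Ier2 libraries overlapped those of both neighbours, while every Ier3 library was above every Egr1 library. Dusp1 followed at 196 ± 7.48 TPM, then Btg2 at 59.3 ± 0.62 TPM and Zfp36 at 44.9 ± 1.41 TPM. Nr4a1 (32.6 ± 0.884 TPM) and Egr2 (32.3 ± 1.25 TPM) overlapped. Nr4a2 at 6.93 ± 0.0905 TPM and Egr3 at 4.65 ± 1.44 TPM were the least abundant. Egr1 stood above 96.9% of the tested genes on this scale and Egr3 above 6.38% of them.

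**Figure D1:**
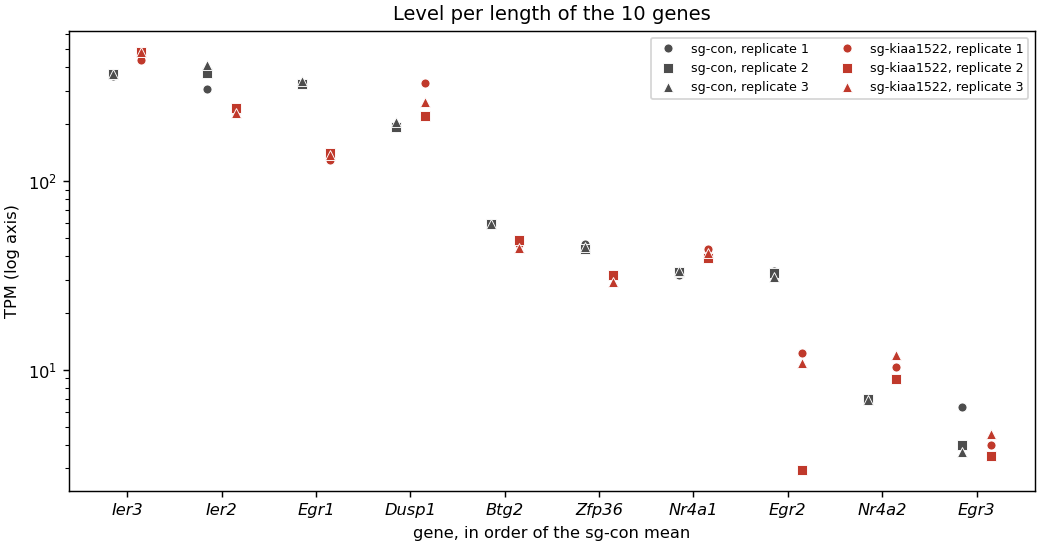
TPM (log axis) of each of the 10 genes in the 3 sg-con and the 3 sg-kiaa1522 libraries, in the order of the sg-con mean. Egr1 drops from 331 TPM to 136 TPM and falls under Dusp1, and 1 sg-kiaa1522 library holds Egr2 at 2.95 TPM.

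In sg-kiaa1522 the order on the TPM scale changed. Ier3 led at 466 ± 24.8 TPM, followed by Dusp1 (270 ± 54.4 TPM) and Ier2 (235 ± 8.61 TPM), whose libraries overlapped, and Egr1 came next at 136 ± 6.07 TPM. Egr1 made up 23 ± 0.911% of the summed TPM of the 10 genes in sg-con and 10.9 ± 0.711% in sg-kiaa1522. The 3 least abundant, Nr4a2, Egr2 and Egr3, could not be ranked between neighbours. The ratio of Egr1 to Nr4a1 TPM within a library was 10.4, 9.92 and 10.1 in sg-con and 2.98, 3.61 and 3.32 in sg-kiaa1522.

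The main question of the design was which genes differed between cells with the kiaa1522 sgRNA and control cells. CPM values were scaled with the trimmed mean of M values (TMM), a fold change is the ratio of sg-kiaa1522 to sg-con on the log2 scale from the edgeR fit, and p-values were adjusted over all 10046 genes by Benjamini-Hochberg. At the threshold of the study, which asks for an adjusted p up to 0.05 together with a change of 1 or more on the log2 scale, 2 of the 10 genes were lower, Egr1 and Egr2, where 4.34% of all tested genes were lower. None of the 10 was higher at that threshold with edgeR or DESeq2, where 2.74% of all were with edgeR, while 4 were higher at an unadjusted p under 0.05 (edgeR). At a stricter fold of 2 on the log2 scale, which the study also names, Egr1 (-1.37) did not pass, and Egr2 (-2.01) passed by a margin that was lost without sg-kiaa1522 replicate 2 (-1.59), with DESeq2 and with the chromosome median removed (-1.82). Without the fold threshold, 5 were lower (26.3% of all tested) and 3 were higher (26.3% of all tested), so that the count of higher members was near that of all genes. Without sg-kiaa1522 replicate 3, only 1 member was higher at an adjusted p of 0.05 (edgeR). The libraries of the groups did not overlap for 5 genes that were lower (31.1% of all) and 4 that were higher (30.6% of all). The median log2 fold change of the 10 was -0.38, beside -0.01 over all tested genes.

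**Figure D2:**
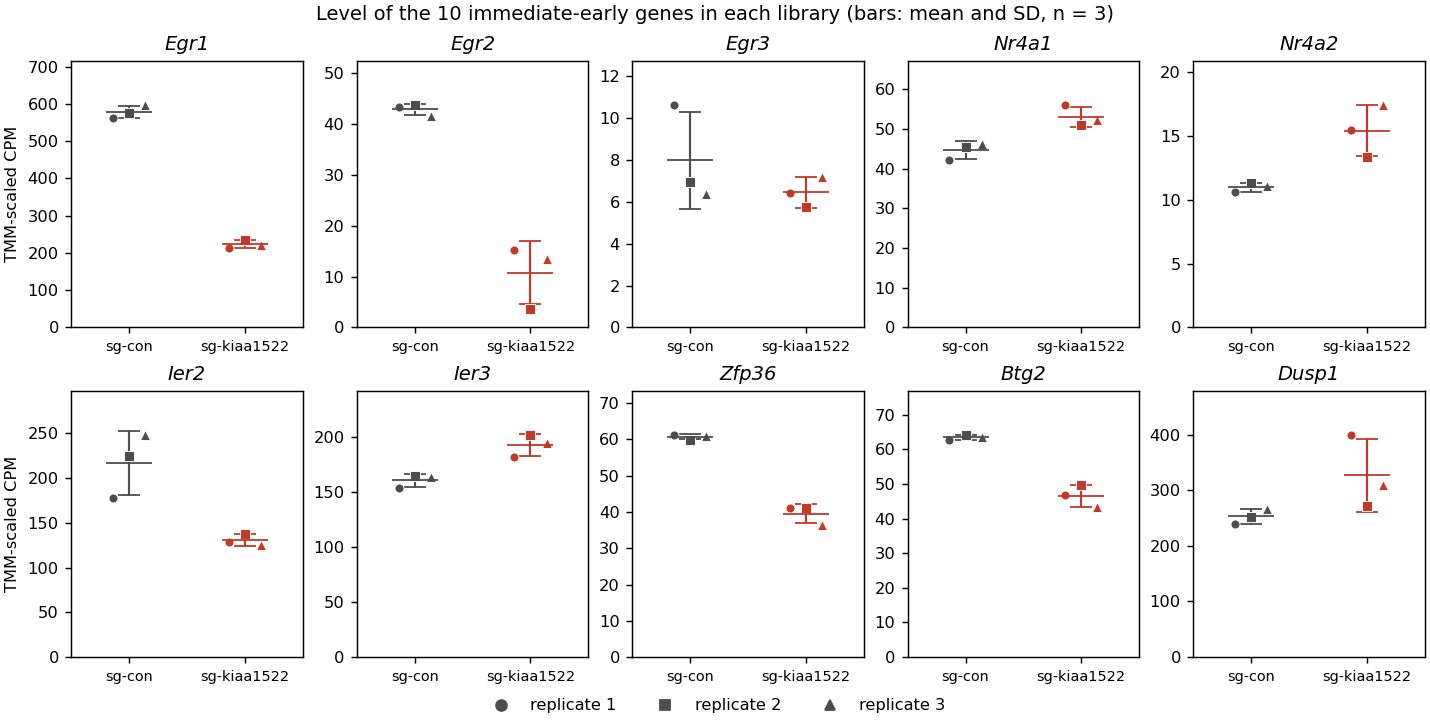
TMM-scaled CPM of each gene in the 6 libraries, with the mean and SD of each group (n = 3) and a separate axis from 0 for each gene. The groups do not overlap for any gene but Egr3, and in Egr2 the second sg-kiaa1522 library lies at 3.71 CPM, below the other two at 15.2 and 13.4 CPM.

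Among the EGR genes, Egr1 encodes the best known member, which binds GC-rich sites in the promoters of growth and stress genes. Its gene (ENSMUSG00000038418) lies on chromosome 18 at 34859823 to 34864984 of GRCm38, plus strand, with 2 exons in its longest transcript. It measured 563, 577 and 596 CPM in sg-con and 213, 235 and 222 CPM in sg-kiaa1522. The values within a group lay within 1.1 times of each other, and every sg-kiaa1522 library was far below every sg-con library. The fold change on the log2 scale was -1.37 (SE 0.0611, 95% interval -1.52 to -1.23, edgeR quasi-likelihood test, adjusted p = 1.5e-05), or 2.59-fold lower.

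Egr2 (chr10:67535475-67542188, plus strand) encodes a close relative with a nearly identical zinc-finger region, known for myelination and lymphocyte tolerance. It measured 43.3, 43.6 and 41.6 CPM in sg-con and 15.2, 3.71 and 13.4 CPM in sg-kiaa1522, from 754, 808 and 693 and from 184, 68 and 227 counts. The sg-con libraries were within 1.05 times of each other, whereas the sg-kiaa1522 libraries spread over 4.09 times because replicate 2 was low. In the edgeR fit the difference was -2.01 on the log2 scale (SE 0.417, 95% interval -2.99 to -1.04, adjusted p = 0.00526, edgeR quasi-likelihood test). Without sg-kiaa1522 replicate 2 it was -1.59 (adjusted p = 0.000398, edgeR), with the same direction and the same call at a fold of 1 on that scale.

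Egr3 (chr14:70077203-70082614, plus strand), which Egr1-inducing stimuli also induce and which works in muscle spindle and T cell development, was expressed at a low level. Its counts were 184, 129 and 106 in sg-con and 78, 105 and 122 in sg-kiaa1522, or 10.6, 6.96 and 6.36 CPM and 6.43, 5.73 and 7.19 CPM. The groups overlapped, and the high value was sg-con replicate 1. The log2 fold change of -0.30 was not called (95% interval -0.81 to 0.20, edgeR adjusted p = 0.265), an interval that excludes a difference of the size seen in Egr1. The genes of chromosome 14 had a median log2 fold change of -0.38 (343 tested genes), and relative to it Egr3 stood at 0.07. Egr4, the remaining family member, had 0 counts in all 6 libraries.

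Together the 3 expressed EGR genes summed to 370, 362 and 372 TPM in sg-con and 145, 148 and 153 TPM in sg-kiaa1522, of which Egr1 made up 89.9 ± 0.715% and 91.5 ± 3.63%. The corepressors that bind EGR proteins, Nab1 and Nab2, were themselves tested. Nab1 had a log2 fold change of -0.30 (adjusted p = 0.0206, edgeR, and 0.0635 and 0.0813 without sg-kiaa1522 replicate 2 and 3) and Nab2 of -0.13 (adjusted p = 0.281, edgeR).

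Both tested NR4A genes were higher. Nr4a1 (Nur77; chr15:101254269-101274795, plus strand) regulates apoptosis and metabolism. It measured 42.2, 45.5 and 46.3 CPM in sg-con and 55.9, 50.9 and 52.3 CPM in sg-kiaa1522. Every sg-kiaa1522 library was above every sg-con library, by a small margin. The log2 fold change was 0.25 (SE 0.0792, 95% interval 0.06 to 0.43, edgeR adjusted p = 0.0327), and the call was lost whenever any 1 of the 6 libraries was left out (edgeR adjusted p from 0.0522 to 0.0951).

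Nr4a2 (Nurr1; chr2:57106830-57124003, minus strand), needed for dopaminergic neurons and induced by the same stimuli, was less abundant. It measured 10.6, 11.3 and 11.1 CPM in sg-con and 15.5, 13.4 and 17.4 CPM in sg-kiaa1522, with no overlap and a wider spread in sg-kiaa1522. The difference on the log2 scale was 0.49 (SE 0.124, 95% interval 0.20 to 0.78, edgeR adjusted p = 0.0127). Without sg-kiaa1522 replicate 3 it was 0.39 (edgeR adjusted p = 0.0506). The third receptor, Nr4a3, had 7, 5 and 7 counts in sg-con and 7, 10 and 14 in sg-kiaa1522 and was not tested. The sum of the 3 NR4A genes was 39.7 ± 0.935 TPM in sg-con and 52 ± 3.25 TPM in sg-kiaa1522. The retinoid X receptors with which NR4A1 and NR4A2 can pair had log2 fold changes of 0.02 (Rxra, adjusted p = 0.815, edgeR) and 0.18 (Rxrb, adjusted p = 0.0791, edgeR).

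Ier2 and Ier3, which share a name but little sequence, also split. Ier2 (chr8:84661331-84662852, minus strand), an intronless gene for a nuclear protein linked to cell motility, measured 178, 225 and 248 CPM in sg-con and 129, 138 and 125 CPM in sg-kiaa1522. The sg-con libraries differed among themselves by 1.4 times, but the lowest of them was above all 3 sg-kiaa1522 libraries. Its log2 fold change was -0.73 (SE 0.12, 95% interval -1.01 to -0.45, edgeR adjusted p = 0.00189).

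Ier3 (IEX-1; chr17:35821684-35822923, plus strand), an NFκB target that modulates apoptosis, measured 154, 165 and 164 CPM in sg-con and 182, 202 and 195 CPM in sg-kiaa1522. Spread within groups was about 1.1 times in each. The log2 fold change was 0.26 (SE 0.0654, 95% interval 0.11 to 0.41, edgeR adjusted p = 0.0128), and without sg-kiaa1522 replicate 2 it was 0.23 (edgeR adjusted p = 0.0572). Of the relatives, Ier5l was lower (log2 fold change -0.89, edgeR adjusted p = 0.0024) and Ier5 higher (0.30, edgeR adjusted p = 0.0305, and up to 0.087 without sg-con replicate 2 or 3 or sg-kiaa1522 replicate 1 or 3).

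Zfp36 (chr7:28376784-28380253, minus strand) encodes tristetraprolin, which binds AU-rich elements in cytokine and immediate-early mRNAs and brings in the CCR4-NOT deadenylase. It measured 61.2, 59.9 and 61 CPM in sg-con and 41.1, 41 and 36.5 CPM in sg-kiaa1522. The sg-con libraries agreed within 1.02 times and lay well above the sg-kiaa1522 libraries. This gave a log2 fold change of -0.62 (SE 0.0792, 95% interval -0.80 to -0.43, edgeR adjusted p = 0.000626). An antisense gene, Gm44710, shares 125 bases (3.6%) of its exons, and the strand of counting is not stated.

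The paralogs of Zfp36 went in the opposite direction. Zfp36l1 measured 42.4, 42.9 and 40.5 CPM in sg-con and 84.9, 98.2 and 98.7 CPM in sg-kiaa1522 and was the only family relative of the 10 genes past the study threshold (log2 fold change 1.16, SE 0.0832, edgeR adjusted p = 6.81e-05). Zfp36l2 was higher with a log2 fold change of 0.46 (edgeR adjusted p = 0.000992). Within a library, the TPM of Zfp36l1 was 0.804, 0.83 and 0.771 times that of Zfp36 in sg-con and 2.4, 2.78 and 3.14 times in sg-kiaa1522. The 3 genes summed to 384 ± 23.9 TPM in sg-con and 561 ± 33.6 TPM in sg-kiaa1522, mostly from Zfp36l2, and the share from Zfp36 was 11.7 ± 0.397% and 5.58 ± 0.601%.

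Btg2 (chr1:134075170-134079120, minus strand) encodes an antiproliferative protein that p53 and growth factors induce and that binds the CCR4-NOT deadenylases CNOT7 and CNOT8. It measured 62.6, 64.1 and 63.7 CPM in sg-con and 46.7, 49.7 and 43.3 CPM in sg-kiaa1522, without overlap. On the log2 scale the change was -0.45 (SE 0.0786, 95% interval -0.63 to -0.26, edgeR adjusted p = 0.0026). The genes of chromosome 1 had a median log2 fold change of -0.21 (569 tested genes), and relative to it Btg2 stood at -0.24. Its paralog Btg1, more abundant on the TPM scale, was higher (log2 fold change 0.33, edgeR adjusted p = 0.00543). Relative to the median of its own chromosome Btg1 stood at 0.53. The ratio of Btg1 to Btg2 TPM was 2.71 ± 0.229 in sg-con and 4.65 ± 0.245 in sg-kiaa1522.

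Dusp1 (MKP-1; chr17:26505590-26562128, minus strand) encodes the nuclear phosphatase that switches off p38, JNK and ERK. It measured 240, 252 and 267 CPM in sg-con and 399, 271 and 310 CPM in sg-kiaa1522. The groups did not overlap, but sg-kiaa1522 replicate 2 lay just above the highest control and replicate 1 stood well above the rest. The log2 fold change of 0.37 (SE 0.135, 95% interval 0.06 to 0.68) missed the threshold by a narrow margin (edgeR adjusted p = 0.0501), and under 7 of the 14 alternatives with p-values of their own, DESeq2 among them (adjusted p = 0.0159), it passed. Ergic1, on the other strand, shares 11 of its exon bases (0.332%) and had a log2 fold change of -0.25 (edgeR adjusted p = 0.0154). The Ergic1 call was lost without sg-kiaa1522 replicate 2 or 3 (edgeR adjusted p = 0.0639 and 0.0603) and with a term for replicate number (0.0583). Of the 3 other MAP kinase phosphatases listed, Dusp4 (0.51, edgeR adjusted p = 0.00194) and Dusp5 (0.29, edgeR adjusted p = 0.015) were higher. The Dusp5 call was lost without sg-kiaa1522 replicate 3 (edgeR adjusted p = 0.0648) and with a term for replicate number (0.0517). Dusp2 had at most 1 count in any library.

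**Figure D3:**
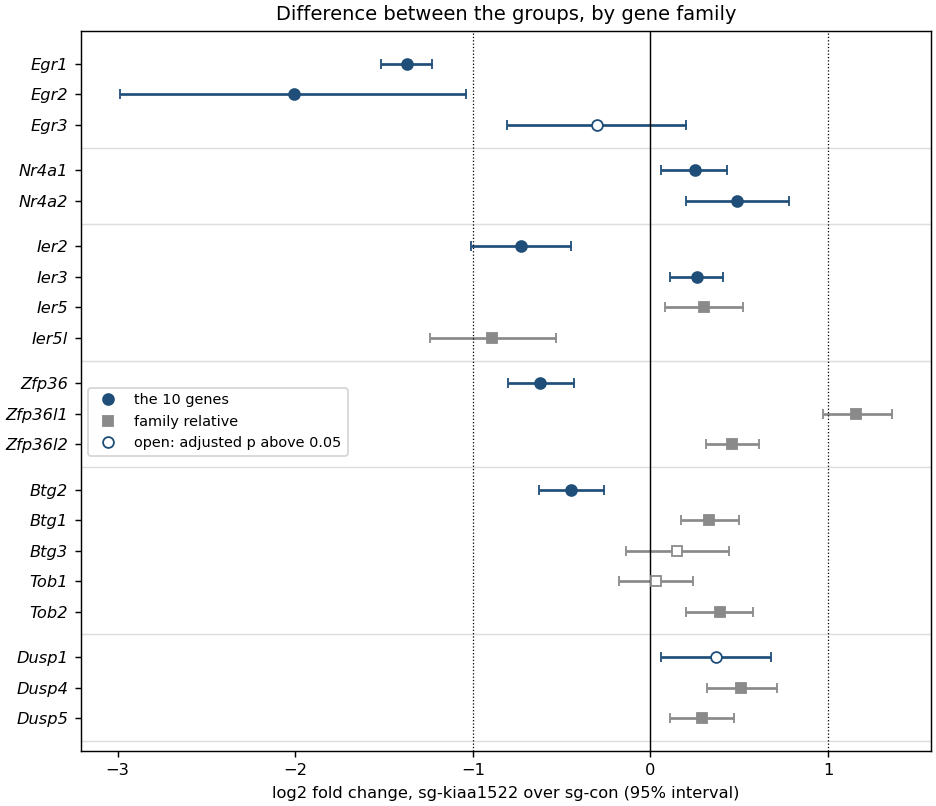
Log2 fold change (sg-kiaa1522 over sg-con) with its 95% interval for the 10 genes and their tested family relatives, grouped by family, with dotted lines at the fold threshold of the study. Egr1 and Egr2 lie left of -1, Zfp36l1 lies at 1.16, and Zfp36 and Btg2 lie on the other side of 0 from their paralogs.

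In all, 13 family relatives were listed and 10 were tested. Of these, 7 were higher and 1 was lower at an adjusted p of 0.05 (edgeR), where 26.3% of all tested genes were called in each direction, and 2, Btg3 and Tob1, did not pass. Their median log2 fold change was 0.32, beside -0.38 for the 10 genes.

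Most of the 10 genes were short with few exons, a feature that the choice did not use, while Nr4a1 and Nr4a2 had 8 exons each and Dusp1 had 4. The longest coding transcript of each covered a median of 4136 genomic bases (GENCODE M21 annotation, GRCm38), beside 22682 bases for the 9752 tested protein-coding genes, and 7 of the 10 had at most 2 exons, beside 5.59% of all. The pentamer ATTTA, the core of AU-rich elements, occurred at a median of 2.57 per kilobase of 3′ UTR in the 10 genes and 1.32 in all tested genes, and 9 of the 10 were above that median. Ier2 had none and Ier3 had the most, 8.16 per kilobase. The nonamer TTATTTATT, which ZFP36 proteins bind, occurred in Zfp36 itself and in Dusp1, and in 8.49% of all tested genes. These sites are shown because one was in a gene that was lower and both others in a gene that was not called. Capitals mark the nonamer.
Zfp36, base 589 of 774 of the 3′ UTR: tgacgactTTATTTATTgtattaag
Dusp1, base 103 of 690 of the 3′ UTR: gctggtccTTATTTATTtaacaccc
Dusp1, the other site in the 3′ UTR: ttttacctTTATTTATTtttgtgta

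A list of other immediate-early genes placed the 10 in their wider class. Of 39 genes, 36 were tested, and 5 were lower and 2 higher at the study threshold (4.34% and 2.74% of all tested genes). At an adjusted p of 0.05 alone, 14 were lower, 14 were higher and 8 did not pass (edgeR; 26.3% of all tested genes in each direction), with a median log2 fold change of -0.07.

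The 5 that were lower included the AP-1 subunits Fos and Fosb. Fos measured 279, 280 and 290 CPM in sg-con and 61.9, 41.3 and 51.7 CPM in sg-kiaa1522 (log2 fold change -2.46, SE 0.137, edgeR adjusted p = 2.68e-05). Fosb measured 239, 256 and 250 CPM and 83.3, 53.8 and 68.6 CPM (-1.86, SE 0.145, edgeR adjusted p = 9.01e-05). Neither gene overlapped between the groups, and both values lay further from 0 than that of Egr1. The others were Klf2, a zinc-finger factor of endothelial and lymphoid quiescence (-2.47, edgeR adjusted p = 0.000105), Ctgf, a secreted matrix-associated protein and target of YAP and SRF (-1.87, edgeR adjusted p = 0.000146), and Rhob, a short-lived small GTPase (-1.12, edgeR adjusted p = 0.000144). The 2 that were higher were Ptgs2, the inducible cyclooxygenase, at 501 ± 87.4 CPM in sg-con and 1287 ± 62.8 CPM in sg-kiaa1522 (1.36, edgeR adjusted p = 0.000131), and Fosl1, the AP-1 subunit Fra-1, at 69.4 ± 9.47 and 175 ± 13.4 CPM (1.33, edgeR adjusted p = 0.000114).

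**Figure D4:**
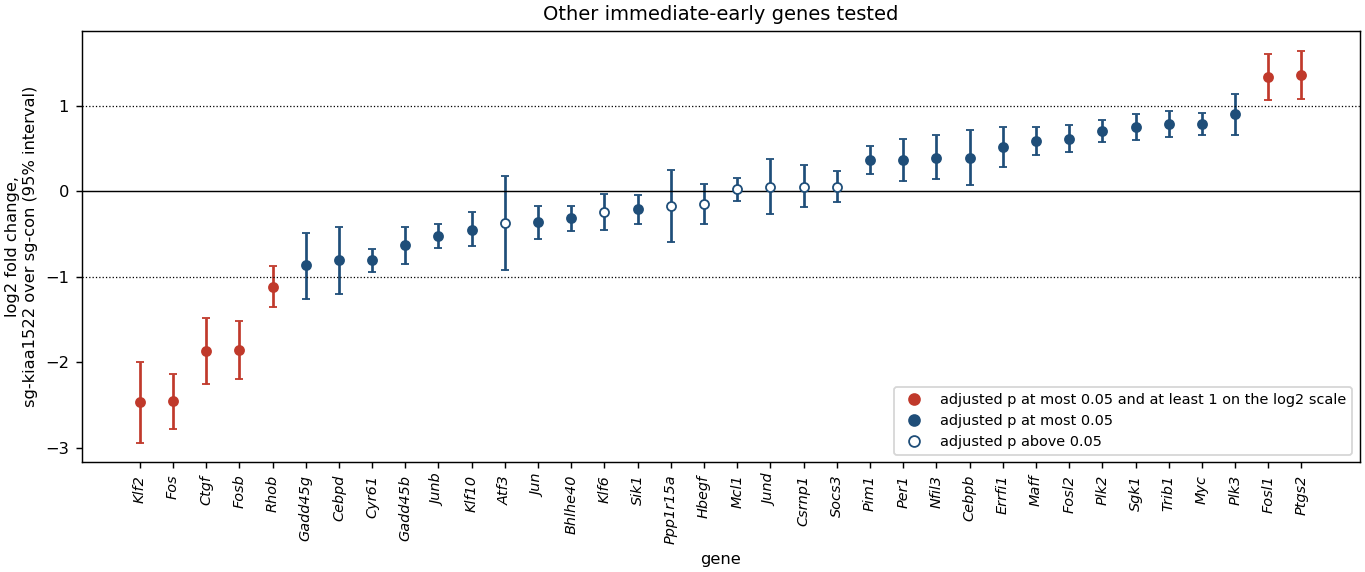
Log2 fold change (sg-kiaa1522 over sg-con) with its 95% interval for the 36 other immediate-early genes tested, sorted by value, with dotted lines at the fold threshold of the study. The 5 genes under -1 are Klf2, Fos, Ctgf, Fosb and Rhob, the 2 above 1 are Fosl1 and Ptgs2, and the rest spread over both sides of 0.

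The 21 genes of the upstream signalling list (SRF and its cofactors, CREB and its coactivators, and kinases of the ERK and p38 routes) were all tested, and none passed the study threshold in either direction with edgeR or DESeq2 (4.34% of all genes were lower and 2.74% higher). At an adjusted p of 0.05, 2 were lower and 6 were higher (edgeR; 2 and 7 at an unadjusted p under 0.05), where 26.3% of all tested genes were called in each direction, with a median of 0.11. With single libraries left out, the counts ranged from 1 (without sg-kiaa1522 replicate 2) to 4 lower (without sg-con replicate 1), and fell to 3 higher without sg-con replicate 2 or 3 or sg-kiaa1522 replicate 2 or 3. The 2 that were lower, named after their values were seen, were Mkl1, an SRF cofactor (-0.25, edgeR adjusted p = 0.0128, and 0.0621 without sg-kiaa1522 replicate 2), and Mapk3, the kinase ERK1 (-0.39, edgeR adjusted p = 0.00227). Srf itself measured 143 ± 2.76 CPM in sg-con and 133 ± 1.56 CPM in sg-kiaa1522 (-0.11, edgeR adjusted p = 0.132). These are mRNA levels and do not measure the activity of the kinases.

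Of the 14 protein partners of the 10 genes (the NAB corepressors, RXR receptors and CCR4-NOT subunits), none passed the study threshold with edgeR or DESeq2, 3 were lower and 2 higher at an adjusted p of 0.05 (edgeR; 4 and 3 at an unadjusted p under 0.05), and 9 did not pass, where 26.3% of all tested genes were called in each direction. Without sg-kiaa1522 replicate 2 only 1 was lower, and without replicate 3 only 1 was higher. The higher ones, named after their values were seen, were the CCR4-NOT scaffold Cnot1 (0.71, edgeR adjusted p = 0.00316) and Cnot3 (0.32, edgeR adjusted p = 0.0179, and 0.0591 without sg-kiaa1522 replicate 3), and the lower ones beside Nab1 were Rqcd1, the subunit CNOT9 (-0.56, edgeR adjusted p = 0.00103), and Cnot11 (-0.28, edgeR adjusted p = 0.0454), whose call was lost under 10 of 14 alternatives.

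Of 11 mRNAs listed as targets of ZFP36, 6 were tested, and Tnf, Csf2, Il6, Cxcl2 and Ccl3 were under the filter. All 6 passed an adjusted p of 0.05, 2 lower and 4 higher (edgeR; 26.3% of all tested genes in each direction), with a median of 0.43. The chemokine Cxcl1 measured 45, 44.1 and 49.4 CPM in sg-con and 5.77, 5.24 and 4.36 CPM in sg-kiaa1522 (log2 fold change -3.18, SE 0.125, edgeR adjusted p = 8.43e-06). Ccl2 measured 11.8 ± 0.908 and 1.72 ± 0.827 CPM (-2.84, SE 0.277, edgeR adjusted p = 0.0002). Ptgs2, above, is also on this list, and was the 1 target past the threshold that was higher. The targets of this list thus did not share a direction.

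A list of 10 heat shock genes was read as well. Of the 8 tested, none was lower and 3 were higher at an adjusted p of 0.05 (edgeR; 26.3% of all tested genes in each direction). Hspa1b (1.38, edgeR adjusted p = 0.000195) and Hsph1 (1.23, edgeR adjusted p = 8.77e-05) passed the study threshold, Hsp90aa1 (0.53, edgeR adjusted p = 0.00373) did not reach its fold, and the median was 0.15 over the 8. Hspa1b has a nearly identical copy, Hspa1a, and its counts are uncertain for that reason. The part of this in the immediate-early genes was not tested.

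Within groups the 10 genes did not share one order of libraries. In sg-con, replicate 1 was the lowest library for 7 of the 10 genes, where it was lowest for 42.2% of all tested genes, yet it was the highest for Egr3. In sg-kiaa1522, replicate 2 was lowest for 5 and highest for 4 of the 10 genes. For the 36 other immediate-early genes, sg-kiaa1522 replicate 2 was lowest for 16 and replicate 1 highest for 18, where replicate 2 was lowest for 31.2% of all tested genes. In Egr2 and Dusp1 replicate 2 was the lowest and replicate 1 the highest of the 3 sg-kiaa1522 libraries, and in Egr1 and Ier3 the reverse held.

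The 5 tested genes outside the 10 whose log2 CPM was most like that of Egr1 over the 6 libraries were Cma1, Ikbke, Zfp862-ps, Mapkapk3 and Prim1, with Pearson's r between 0.9990 and 0.9998. The 6 points hold 2 groups, so that r mostly records a difference between groups with a narrow spread within each, and 175 of 10036 genes had r above 0.99. Cma1, a mast cell chymase, measured 46.6 ± 2.93 CPM in sg-con and 6.66 ± 0.601 CPM in sg-kiaa1522 (log2 fold change -2.80), and Prim1, the catalytic subunit of DNA primase, 53.5 ± 1.22 and 21.6 ± 1.5 CPM (-1.30). The kinases Ikbke (-0.84) and Mapkapk3 (-0.85) and the pseudogene Zfp862-ps (-0.68) were lower by less than the fold threshold.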

How the data were processed

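Total RNA of 6 libraries of 889 cells was sequenced. Per the labels and the methods of the study, the authors filtered reads with Seqtk, mapped them to GRCm38 with HISAT2 2.0.4 and counted uniquely mapped fragments with StringTie 1.3.0. The deposited values are whole-number counts per gene, not normalized. The annotation release and the strand setting are not given in the sources used here.

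Counts were joined by gene identifier, and 34344 of 34745 identifiers matched GENCODE M21, which gave exon lengths and coordinates. The 10046 genes whose summed count exceeded 500 were fitted with edgeR 4.0.16 (R 4.3.3), TMM factors (0.9894 to 1.01), a group term and the quasi-likelihood test, with Benjamini-Hochberg adjustment. SE is the log2 fold change over the square root of F, and intervals are at 95%. Library totals were 12220001 to 18609376 counts. The biological coefficient of variation, the spread between libraries of a group beyond counting noise, was 0.127. The fit was tested on simulated data with known changes. DESeq2 1.42.0 and other settings served as alternatives. TPM used exon lengths and entered no test.

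The members, lists and rules were chosen with earlier results of these data known. Named genes were the 10 genes, the targeted gene, list genes past the study threshold, the 5 genes most like Egr1 and genes sharing exons with a member, and others are named as chosen after their values were seen, or as family relatives, partners or markers. No library was a duplicate of another, since counts of every pair within a group differed by more than sampling noise.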

Additional observations from a re-analysis of the deposited data

How the results depend on the processing

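The counts of members and of other immediate-early genes at the study threshold and the log2 fold change of each of the 10 genes were computed again under 15 alternatives, and the counts of members at an adjusted p of 0.05 under 14 of them: the edgeR exact and likelihood ratio tests, the DESeq2 Wald test, size factors of the RLE method, library size alone, 2 other filters on low counts, a replicate block, each of the 6 libraries left out, and the median of each chromosome removed, which kept the p-values of the fit and could change only a fold or a count at the fold threshold. The 2 members lower and the 0 members higher at the study threshold stayed at those counts under all of them, as Egr1 ranged from -1.41 to -1.34 and Egr2 from -2.33 to -1.59. Of the counts, 87 of 88 stayed within 1.5 times, and the exception was members higher at an adjusted p of 0.05, which ranged from 1 to 2 when single libraries were left out, the lowest without sg-kiaa1522 replicate 3. The same-numbered libraries did not deviate together (correlations -0.21, -0.051 and -0.17). With so few libraries in each group, this does not exclude that they were cultured or prepared together. With the replicate block, 434 genes were lower and 285 higher over all genes, beside 436 and 275 without it, and 5 members were lower and 2 higher at an adjusted p of 0.05, beside 5 and 3. Among single genes, the call of Nr4a1 was lost under 10 of the 14 alternatives with p-values of their own (adjusted p up to 0.109), and Dusp1 was called under 7 of the 14 (adjusted p from 0.0159 to 0.121), the DESeq2 Wald test included. Egr3 changed sign with the median of chromosome 14 removed (0.07), and the cause was not tested. With the longest transcript in place of all exons, TPM moved by more than 1 SD for 13 of 20 group means, and the order of Btg2 and Nr4a1 in sg-kiaa1522 turned. The lowest counts were those of Egr2 in sg-kiaa1522 (68 to 227) and of Egr3 (78 to 184). After the data were seen, the same settings were run for 40 other named genes and for 34 counts over the lists. Of 590 values of these genes, 561 kept their direction and their side of the threshold, and 24 lost a call, 10 of them those of Cnot11. The sign turned for Rxra without sg-con replicate 1 and without sg-kiaa1522 replicate 1 (-0.01 each, in a range up to 0.04 with single libraries left out), and with the chromosome median removed for Rxra (-0.12), Nab2 (0.06) and Srf (0.01), none of them called. Of 492 list counts, 471 stayed within 1.5 times. With single libraries left out, upstream signalling genes at an adjusted p of 0.05 ranged from 1 to 4 lower and 3 to 6 higher, protein partners from 1 to 2 lower and 1 to 3 higher, epithelial markers past the study threshold from 1 to 2 lower, ZFP36 targets from 1 to 2 lower at either threshold and immune markers from 0 to 1 higher at either, since Ccl2 and Cd68 then fell under the filter. The replicate block left 1 upstream signalling gene lower, and removing the chromosome median added 1 family relative, Ier5l, to those lower at the study threshold, where there had been 0.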
